A study of Homo sapiens with 17 samples.

Results

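The genes described here are the subunits of the SWI/SNF chromatin remodelling complexes and the catalytic subunits (ATPases) of the other remodeller families, followed in senescent human fibroblasts in which SMARCA4 was knocked down. The members were taken by name, 42 of the 62754 genes in the count tables: 28 encode SWI/SNF subunits and 14 encode ATPases of the ISWI, CHD and INO80 families, ATRX or SMARCAD1. All 42 passed the filter on low counts, which left 19473 genes for testing.

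IMR90 ER:RAS cells are human lung fibroblasts infected with a retrovirus that encodes RAS, with the G12V change, fused to an estrogen receptor domain, so that 4-hydroxytamoxifen (4OHT) switches on oncogenic RAS and the cells enter senescence. Every culture carried this transgene and every culture was reverse transfected with an siRNA 1 day before treatment, and RNA was taken 7 days after it. The groups were DMSO with a non-targeting siRNA (DMSO siNT, n = 5 libraries), 4OHT with the same kind of siRNA (4OHT siNT, n = 6) and 4OHT with an siRNA against SMARCA4 (4OHT siSMARCA4, n = 6). Knockdown without 4OHT was not among the conditions. Each label also carries the number 2 or 4 after the siRNA name and ends in V or VM, tags that are not explained. The number is read below as an siRNA number, which the labels do not state. Anything else shared by libraries of the same number cannot be told apart from it. VM stood on 3 of 5 DMSO labels, 6 of 6 for 4OHT siNT and 3 of 6 for siSMARCA4. The siSMARCA4 libraries tagged V thus differed from every 4OHT siNT library in tag as well as in siRNA. Libraries are named below by number, replicate and tag, such as 4-2V. The labels do not say that replicates came from separate cultures, so that p-values measure the spread between these libraries, which may be technical.

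SWI/SNF complexes use the energy of ATP to slide or evict nucleosomes and so keep promoters and enhancers open. Each complex is built around a single ATPase, SMARCA4 (BRG1) or its paralogue SMARCA2 (BRM), a common core and one of several sets of defining subunits: ARID1A or ARID1B and a DPF protein in canonical BAF, ARID2, PBRM1, BRD7 and PHF10 in PBAF, and BRD9 with BICRA or BICRAL in non-canonical BAF. Most positions can be filled by more than 1 gene, so that the relative levels of paralogues bear on which complexes a cell can make, and the remaining families space nucleosomes (ISWI), act in NuRD or at active genes (CHD) or exchange histone variants (INO80, SRCAP, EP400).

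The 17 libraries held between 39.1 M and 69.0 M counts and differed little in TMM factor (0.949 to 1.08). Of the fibroblast markers, COL1A1 had means of 10770, 6294 and 2293 CPM (counts scaled to library size) in DMSO siNT, 4OHT siNT and 4OHT siSMARCA4 and DCN 549, 15.8 and 9.19 CPM, both called lower in both comparisons, while VIM, at 5985, 5967 and 5720 CPM, was called in neither. Of the other cell types' markers, CD3E, PTPRC and CDH1 lay under 0.1 CPM on average, while the epithelial keratins KRT18 (63.2, 59.0 and 40.4 CPM) and KRT8 (17.7, 12.5 and 9.54 CPM) were present, and the endothelial genes PECAM1 (0.0145, 0.936 and 0.341 CPM) and VWF (1.11 and 3.76 CPM in DMSO and 4OHT siNT) were low, with their lowest means in DMSO. The part of other cells in the results was not tested. Counts on repeats more than 50000 bp from any gene came to 89.2 to 216 CPM in DMSO siNT, 81.5 to 149 CPM in 4OHT siNT and 159 to 405 CPM in 4OHT siSMARCA4. The 4OHT groups did not overlap, and DMSO 2-2V (196 CPM) and 4-3VM (216 CPM) lay within the range of siSMARCA4. These counts served as a covariate in an alternative fit, and their part in the results was not tested further. As the 4OHT groups did not overlap in them, that fit cannot tell the knockdown apart from these counts. This holds for calls kept and for calls lost under it. In bulk RNA, fewer cells with a transcript and less transcript per cell cannot be told apart. Levels below are in CPM scaled by TMM unless said otherwise; differences are log2 fold changes from edgeR, and a gene was called at an adjusted p under 0.05 (Benjamini-Hochberg over the 19473 genes).

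The target of the siRNA was examined first. SMARCA4 (ENSG00000127616, GRCh38 19:10960932-11079426, plus strand) lay at 168, 192, 205, 212 and 215 CPM in the DMSO libraries. With 4OHT siNT it ranged from 253 to 286 CPM with a median of 264, and with siSMARCA4 from 68.4 to 127 CPM with a median of 80.5. All 3 groups were apart, with no library of one inside the range of another. The knockdown left 32.9% of the transcript (-1.61 on the log2 scale, with an SE of 0.13 and an edgeR adjusted p of 5.14e-07). By the same fit 4OHT against DMSO gave 0.44 (SE 0.13, adjusted p 0.00851), which did not pass with number 4 libraries alone (0.33, adjusted p 0.227). The siSMARCA4 library 4-2V held the most SMARCA4 and 4-2VM the least.

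SMARCA2 (ENSG00000080503, GRCh38 9:1980290-2193624, plus strand), the alternative ATPase of the same complexes, was lower both in 4OHT and on knockdown. It stood at 30.0, 42.9, 43.1, 43.8 and 46.7 CPM in DMSO, 26.5 to 33.3 CPM in 4OHT siNT with a median of 30.2, and 18.5 to 22.9 CPM in 4OHT siSMARCA4 with a median of 20.1. Every siSMARCA4 library lay below every 4OHT siNT library, whereas DMSO 4-3VM, far below the other DMSO libraries, lay within the range of 4OHT siNT. The change on knockdown was -0.53 (SE 0.10, edgeR adjusted p 0.000847) and that in 4OHT against DMSO -0.47 (SE 0.10, adjusted p 0.000552). With far-from-gene counts as a covariate the first was -0.41 (adjusted p 0.0573) and with number 4 libraries alone -0.37 (adjusted p 0.145).

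The starts of both ATPase genes are shown because these are the only catalytic subunits of SWI/SNF. A link between these sequences and the changes on knockdown, where SMARCA4 is the target, was not tested. The sequences are the 250 bases upstream of the first start in the RefSeq table (GRCh38.p14), 5′ to 3′ on the plus strand, at 19:10960780-10961029 for SMARCA4 and 9:2015097-2015346 for SMARCA2, with the GC box GGGCGG and its reverse complement CCGCCC in capitals.
SMARCA4: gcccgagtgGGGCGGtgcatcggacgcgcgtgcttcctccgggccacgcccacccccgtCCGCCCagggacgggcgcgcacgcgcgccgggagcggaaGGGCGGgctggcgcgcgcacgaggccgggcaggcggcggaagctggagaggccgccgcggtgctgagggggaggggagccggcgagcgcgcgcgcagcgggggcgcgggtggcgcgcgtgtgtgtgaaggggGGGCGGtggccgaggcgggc
SMARCA2: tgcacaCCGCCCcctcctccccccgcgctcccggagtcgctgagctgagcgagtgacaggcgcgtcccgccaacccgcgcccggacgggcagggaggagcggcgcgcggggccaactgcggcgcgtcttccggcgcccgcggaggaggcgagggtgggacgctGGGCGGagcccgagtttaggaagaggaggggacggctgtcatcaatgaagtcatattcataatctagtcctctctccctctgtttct
The SMARCA4 window held 4 of these motifs at a GC content of 82.4%, and the SMARCA2 window held 2 at 68.8%. Among 35116 promoter windows of the same length the motif was present in 42.6%, and the median GC content was 58.0%. RefSeq lists 2 starts for SMARCA4 and 4 for SMARCA2, and the annotated SMARCA2 gene begins upstream of the window shown. The annotated SMARCA4 gene begins inside its window, so that the last bases printed, with the last GC box, lie within the gene.

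Per exon length, SMARCA4 made up 85.4 ± 2.66% of SMARCA4 plus SMARCA2 transcripts in DMSO siNT (SD, n = 5), 91.7 ± 0.902% in 4OHT siNT (n = 6) and 83.4 ± 3.41% in 4OHT siSMARCA4 (n = 6). The 4OHT siNT libraries, from 90.7 to 92.8%, lay above all others, and the ranges of DMSO (82.7 to 89.8%) and siSMARCA4 (78.6 to 87.2%) overlapped. SMARCA4 thus remained the more abundant ATPase transcript of the pair in every library, including those of the knockdown. With the longest transcript in place of the union of exons, the 4OHT siNT share was 91.7%.

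**Figure D1:**
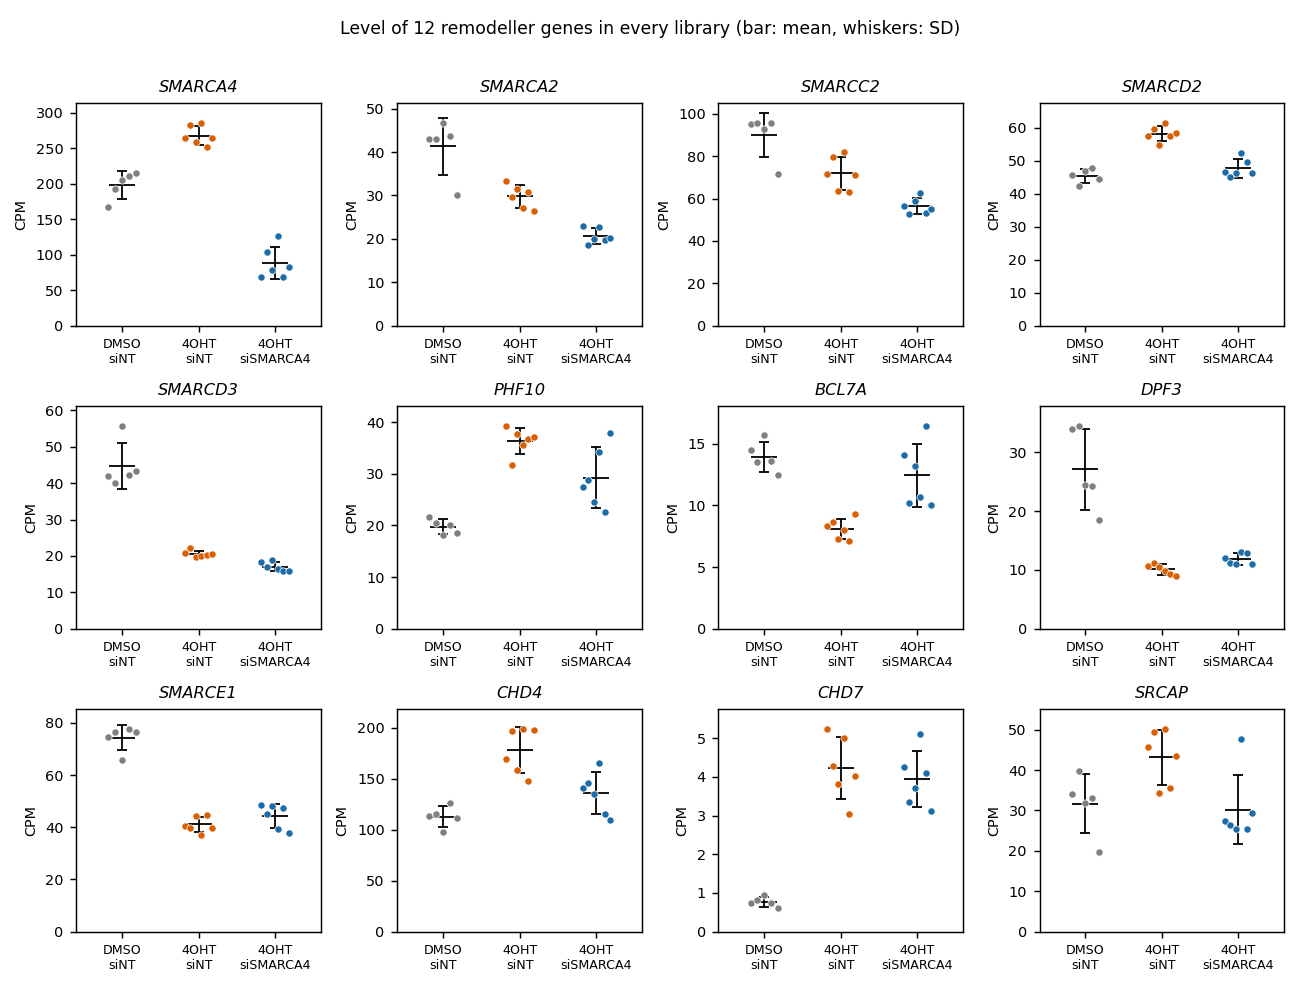
Level in CPM (y axis, linear, from 0) of 12 members in every library of DMSO siNT, 4OHT siNT and 4OHT siSMARCA4 (points; bar, mean; whiskers, SD). SMARCA4 rises from 168 to 215 CPM in DMSO to 253 to 286 CPM in 4OHT and falls to 68.4 to 127 CPM with siSMARCA4, BCL7A moves the other way in both steps, and CHD7 is under 1 CPM in every DMSO library.

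Comparing siSMARCA4 with siNT in 4OHT asked whether loss of SMARCA4 left the transcripts of the other remodellers in place. Of the 42 members edgeR called 9 (21.4%), against 24.2% of all genes tested, so that the share lay near the background. A single member was called higher, against 10.4% of all genes, and 8 were called lower, against 13.8%. The groups did not overlap for 7 members, against 12.0% of all genes. Without SMARCA4 the count was 8 of 41 (19.5%), and the median change of these 41 was -0.08 on the log2 scale, beside -0.02 over all genes. Across the 28 SWI/SNF subunits 7 were called, and across the 14 other ATPases 2. With counts far from genes as a covariate the calls came down to 2, SMARCA4 and BCL7A, where 6.26% of all genes were called. That fit cannot tell the knockdown apart from those counts. With number 4 libraries alone the calls came down to 1, SMARCA4, against 6.02% of all genes.

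Among subunits of the common core, which is shared by several forms of the complex, 3 of 7 were called lower on knockdown, against 13.8% of all genes. SMARCC2 (12:56162359-56189567), a scaffold subunit, had levels of 71.6, 92.7, 94.9, 95.5 and 95.6 CPM in DMSO, 63.2 to 81.9 CPM in 4OHT siNT (median 71.4) and 52.7 to 62.8 CPM in siSMARCA4 (median 55.9). The siSMARCA4 libraries lay below all 4OHT siNT libraries, though the gap between the nearest libraries was small. The change was -0.35 (SE 0.08, edgeR adjusted p 0.00624).

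SMARCD2 (17:63832081-63843065), of the BAF60 proteins that link the complex to transcription factors, showed 42.5, 44.5, 45.7, 47.0 and 47.8 CPM in DMSO. Its range was 54.8 to 61.5 CPM in 4OHT siNT (median 58.0) and 45.1 to 52.5 CPM in siSMARCA4 (median 46.5). It was thus high in 4OHT siNT alone, and siSMARCA4 did not overlap with 4OHT siNT (-0.29, SE 0.06, edgeR adjusted p 0.0013). Its paralogue SMARCD3 (7:151238764-151277896) was at 40.1, 41.9, 42.3, 43.2 and 55.7 CPM in DMSO, 19.8 to 22.1 CPM in 4OHT siNT (median 20.4) and 15.9 to 19.0 CPM in siSMARCA4 (median 16.7). The 3 groups stepped down without overlap, and the knockdown gave -0.27 (SE 0.08, adjusted p 0.0188) beside -1.12 (SE 0.08, adjusted p 1.51e-09) for 4OHT against DMSO. Over the 23 alternatives SMARCD2 lost its call in 2 (adjusted p up to 0.182), SMARCC2 in 4 (up to 0.219) and SMARCD3 in 7 (up to 0.457), the last also in VM libraries alone (-0.20, adjusted p 0.12). With far-from-gene counts as a covariate SMARCC2 was at -0.23 (adjusted p 0.219), SMARCD2 at -0.20 (0.0894) and SMARCD3 at -0.28 (0.135).

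The other core members were not called on knockdown. SMARCC1, the second scaffold, had a point value of -0.22 (95% interval -0.41 to -0.04, edgeR adjusted p 0.0665) and was called in VM libraries alone (-0.29, adjusted p 0.0289), with the V or VM tag as a covariate (-0.32, adjusted p 0.00941), with the 2 groups alone (adjusted p 0.0327) and without siSMARCA4 4-2V (adjusted p 0.0292) or 4-3V (adjusted p 0.0467). SMARCD1, SMARCB1, which contacts the nucleosome acidic patch, and SMARCE1 had intervals of -0.28 to 0.04, -0.17 to 0.11 and -0.05 to 0.27.

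PHF10 (6:169703902-169725566), the PBAF counterpart of the DPF proteins, was the only PBAF subunit called. It had 18.1, 18.6, 19.99, 20.4 and 21.7 CPM in DMSO, 31.7 to 39.2 CPM in 4OHT siNT (median 36.9) and 22.5 to 38.0 CPM in siSMARCA4 (median 28.2). The siSMARCA4 libraries 4-2V and 4-3V overlapped with 4OHT siNT and the other 4 lay below it. The change was -0.31 (SE 0.11, edgeR adjusted p 0.0384), but leaving out any of 9 of the 12 libraries took the adjusted p to between 0.0562 and 0.0926. It held only without 4OHT siNT 4-1VM, siSMARCA4 4-2V or siSMARCA4 4-3V. It was also lost in number 4 libraries alone (-0.11, adjusted p 0.737), with far-from-gene counts as a covariate (-0.21, adjusted p 0.367), with no filter on low counts (-0.28, adjusted p 0.107) and with the 2 groups alone (adjusted p 0.0509). ARID2, PBRM1 and BRD7, which with PHF10 define PBAF, had changes of 0.01, -0.06 and -0.04, with 95% intervals that stayed within -0.26 to 0.20.

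Of the canonical BAF subunits edgeR called 0 of 5 on knockdown, against 24.2% of all genes (1 at an unadjusted p under 0.05, DPF2), and DESeq2 called 0, though DPF3 was called with the 2 groups alone in the fit (0.24, adjusted p 0.0398). ARID1A, a DNA-binding subunit, ranged from 58.3 to 70.9 CPM in 4OHT siNT (median 66.1) and from 57.2 to 78.5 CPM in siSMARCA4 (median 65.9), with nearly the same median in both groups. Its change was 0.04 (95% interval -0.18 to 0.25), and that of ARID1B, its paralogue, -0.15 (-0.38 to 0.08). DPF2, which reads acetylated histone tails, was at -0.16 (-0.29 to -0.03, edgeR adjusted p 0.0651), DPF1 at -0.25 and DPF3 at 0.23. DPF2 was called, at -0.18, once siSMARCA4 4-2V (adjusted p 0.0388) or 4-3V (adjusted p 0.0419) was left out. In non-canonical BAF, the bromodomain subunit BRD9 and the scaffold paralogues BICRA and BICRAL had changes of 0.15, -0.25 and 0.13, with adjusted p of 0.26, 0.0951 and 0.519 in edgeR. BRD9 was called in VM libraries alone (0.26, adjusted p 0.0413), in number 2 libraries alone (0.31, adjusted p 0.0138) and without siSMARCA4 4-3V (0.22, adjusted p 0.0326). BICRA was called without 4OHT siNT 2-3VM (-0.29, adjusted p 0.0457) and without siSMARCA4 4-2V (-0.30, adjusted p 0.0381).

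BCL7A (12:122019422-122062044), which sits with the ATPase in the complex, was the only member called higher on knockdown. Its DMSO libraries read 12.4, 13.5, 13.6, 14.5 and 15.7 CPM, the 4OHT siNT libraries 7.09 to 9.26 CPM (median 8.17) and the siSMARCA4 libraries 9.99 to 16.4 CPM (median 11.9). Each siSMARCA4 library lay above each 4OHT siNT library and the siSMARCA4 range took in all 5 DMSO values. The rise was 0.62 (SE 0.12, edgeR adjusted p 0.0012) after a fall of 0.78 in 4OHT against DMSO (-0.78, SE 0.12, adjusted p 2.5e-05). BCL7A was the only called member besides SMARCA4 that kept its call with far-from-gene counts as a covariate. That fit cannot tell the knockdown apart from those counts. BCL7B also had no overlap between the groups (42.3 to 47.8 CPM against 49.9 to 54.9 CPM) but missed the threshold (0.19, SE 0.07, adjusted p 0.0596), and BCL7C was at -0.09. BCL7B was called by DESeq2 (0.20, adjusted p 0.0383), with genes alone, with the 2 groups alone and in number 2 libraries (0.24, adjusted p 0.0262). In number 4 libraries alone BCL7A was not called (0.56, adjusted p 0.111).

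The remaining shared subunits were not called by edgeR. ACTL6A and beta-actin (ACTB), which form the actin-related arm next to the ATPase, were at -0.03 (95% interval -0.15 to 0.10) and 0.17 (-0.00 to 0.35), and SS18, the subunit fused to SSX in synovial sarcoma, and its paralogue SS18L1 at 0.13 and 0.04. SS18 was called by DESeq2 (0.14, adjusted p 0.0304). ACTB reads can be shared with ACTG1 and with processed copies of actin, and the authors' counting distributed such reads, so that its level is less certain than those of the other members.

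Outside SWI/SNF, 2 of 14 ATPases (14.3%) were called lower on knockdown, near the 13.8% of all genes. CHD4 (12:6570082-6614524), the main ATPase of NuRD, read 98.2, 111, 113, 116 and 126 CPM in DMSO, 148 to 199 CPM in 4OHT siNT (median 183) and 110.0 to 166 CPM in siSMARCA4 (median 138). It was thus higher in 4OHT and came down in siSMARCA4, where only 4-2V lay within the range of 4OHT siNT. The change was -0.39 (SE 0.10, edgeR adjusted p 0.00999), with -0.17 (adjusted p 0.382) at siRNA number 2 and -0.60 (adjusted p 0.00581) at number 4, though the difference between the numbers, 0.43 (SE 0.18), did not pass (adjusted p 0.257). Those are contrasts in the fit of all libraries, and in fits of each number's libraries alone CHD4 was not called (-0.13, adjusted p 0.3 for number 2; -0.56, adjusted p 0.0556 for number 4). Between the 4OHT siNT libraries of numbers 2 and 4, which enter the difference between the numbers, CHD4 was at -0.32 (SE 0.13, edgeR adjusted p 0.149). With far-from-gene counts as a covariate its change on knockdown was -0.40 (adjusted p 0.104).

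SRCAP (16:30698209-30741409), which deposits the histone variant H2A.Z, was at 19.7, 31.9, 33.1, 34.0 and 39.8 CPM in DMSO, 34.4 to 50.1 CPM in 4OHT siNT (median 44.7) and 25.3 to 47.6 CPM in siSMARCA4 (median 26.9). In siSMARCA4, 5 libraries lay between 25.3 and 29.3 CPM and 4-2V stood alone at 47.6 CPM. The change was -0.51 (SE 0.17, edgeR adjusted p 0.0357). The call was lost when any of 9 of the 12 libraries was left out, with changes of -0.51 to -0.46 and adjusted p between 0.0542 and 0.0803. It held without 4OHT siNT 2-2VM, 4OHT siNT 2-3VM or siSMARCA4 4-2V. With far-from-gene counts as a covariate SRCAP was at -0.25 (adjusted p 0.507), and in number 4 libraries alone at -0.45 (adjusted p 0.278).

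The same library, 4-2V, also held the most INO80 (34.5 CPM) and EP400 (62.2 CPM) of the siSMARCA4 libraries. Leaving it out raised the number of members called on knockdown from 9 to 14, by adding DPF2 (-0.18), BICRA (-0.30), SMARCC1 (-0.27), CHD8 (-0.38) and EP400 (-0.46, edgeR adjusted p 0.0349). The share of all genes called in that fit was 27.1%, against 24.2% with the library in. No other single library moved the count by more than 1.5 times, the next highest being 12 without 4-3V. This library also retained the most SMARCA4 of its group, and the part of that in these values was not tested. The siSMARCA4 libraries also differed by tag. Per exon length, SMARCA4 made up 83.3 to 87.2% of the ATPase pair in those tagged V and 78.6 to 82.8% in those tagged VM. The part of the tag in the values of 4-2V was not tested.

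The ISWI ATPases SMARCA1 and SMARCA5, which space nucleosomes, had changes of 0.02 (95% interval -0.17 to 0.22) and -0.08 (-0.25 to 0.10). SMARCA5 lay between 97.0 and 121 CPM in 4OHT siNT (median 114) and between 99.3 and 109.6 CPM in siSMARCA4 (median 105), inside the range of 4OHT siNT. CHD3, the NuRD paralogue of CHD4, was at -0.35 (SE 0.13, edgeR adjusted p 0.0576), CHD8, a gene known from autism, at -0.29, CHD2 at 0.18 and CHD1, which acts at transcribed genes, CHD7 and CHD9 between -0.17 and -0.09. CHD3 was called by DESeq2 (-0.34, adjusted p 0.0465) and without siSMARCA4 2-1VM (-0.41, adjusted p 0.0389), CHD2 in VM libraries alone (0.35, adjusted p 0.00849) and without siSMARCA4 4-3V (0.26, adjusted p 0.0143), and CHD8 with the V or VM tag as a covariate (-0.40, adjusted p 0.0322). ATRX, which acts at repetitive heterochromatin with the histone chaperone DAXX, was at 0.21 and SMARCAD1, which acts in DNA end resection and heterochromatin upkeep, at 0.27 (95% interval 0.01 to 0.52, adjusted p 0.12). INO80, which remodels H2A.Z nucleosomes, was at -0.02 and EP400, the ATPase of TIP60, at -0.30 (95% interval -0.67 to 0.07).

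**Figure D2:**
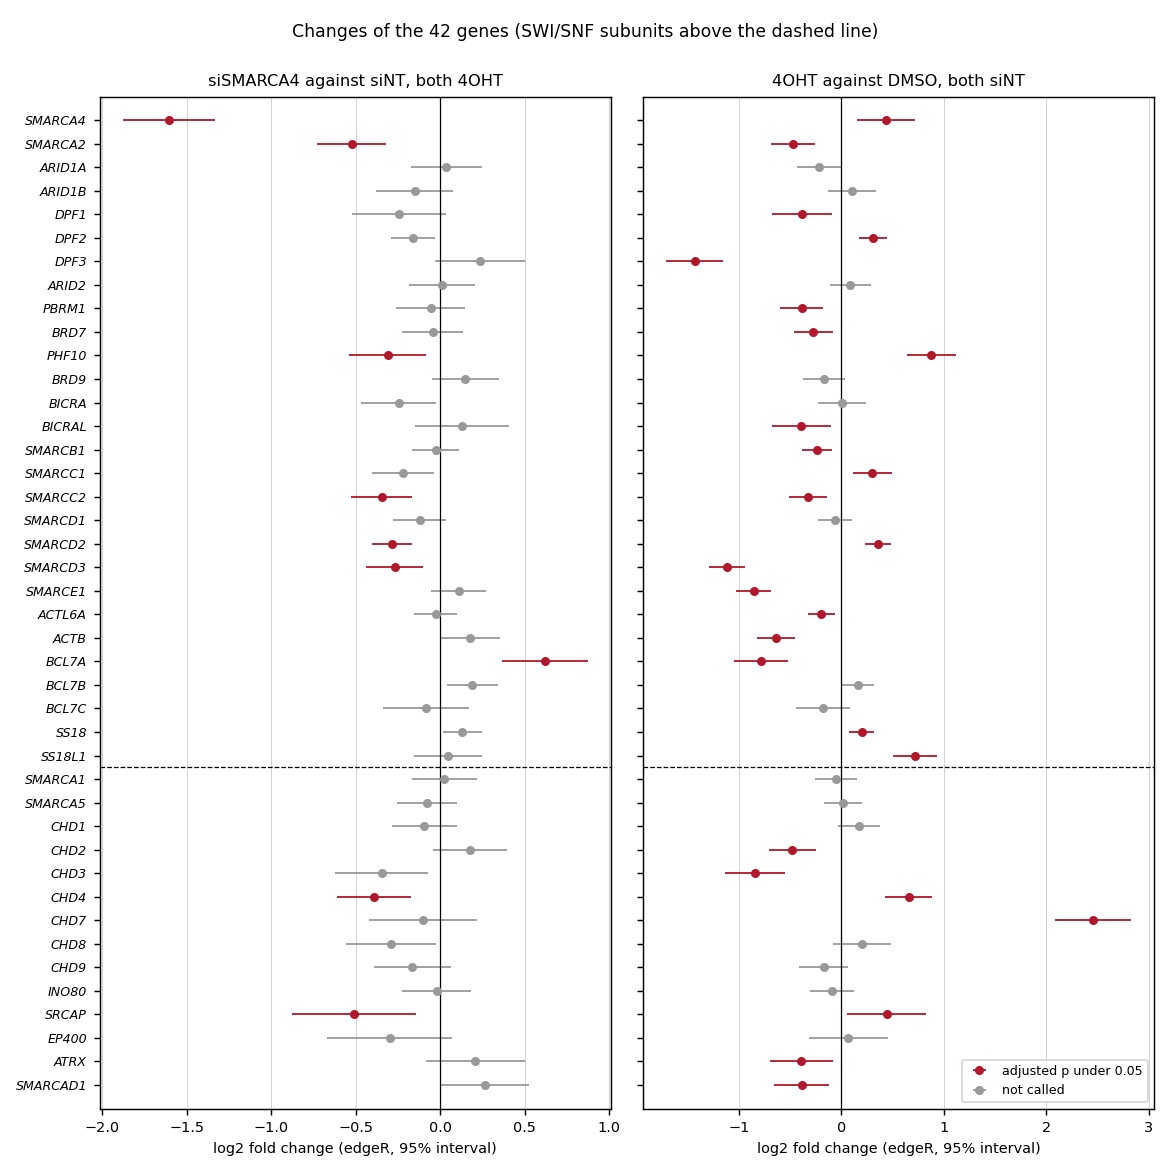
Log2 fold change from edgeR (x axis; whiskers, 95% interval) of the 42 members (y axis) for siSMARCA4 against siNT in 4OHT (left) and 4OHT against DMSO in siNT (right), red where the adjusted p was under 0.05. On the left SMARCA4 at -1.61 stands far from the rest, which lie between -0.53 and 0.62, and on the right 27 members are red and CHD7 at 2.45 is the outermost.

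Whether the knockdown effect depended on the number in the labels, read as an siRNA number, was tested as an interaction. No member passed (0 of 42, 3 at an unadjusted p under 0.05: SMARCA5, CHD3 and CHD4), against 1.06% of all genes. In this joint fit, which takes its spread from all 17 libraries, the contrast at number 2 gave 5 members called (1 higher, 4 lower), against 19.0% of all genes, and that at number 4 gave 9 (2 higher, 7 lower), against 16.1%. Fits restricted to the libraries of 1 number called 8 members for number 2, against 22.9% of all genes, and 1 for number 4, against 6.02%. In the joint fit SMARCA4, SMARCA2, SMARCD2 and BCL7A were called at both numbers, but with number 4 libraries alone SMARCA2 (-0.37, adjusted p 0.145), SMARCD2 (-0.23, adjusted p 0.182) and BCL7A (0.56, adjusted p 0.111) were not. The joint fit put SMARCA4 at -1.63 (SE 0.18) for number 2 and -1.58 (SE 0.18) for number 4. At number 4 it also called CHD3 (-0.61, edgeR adjusted p 0.023) and SMARCAD1 (0.47, adjusted p 0.0397), which were not called over all libraries. At number 2 these were at -0.09 and 0.08 and were not called. Between the 4OHT siNT libraries of number 2 and those of number 4, ATRX was the only member called, against 4.68% of all genes. It read 109.9, 116.5 and 118.5 CPM with number 2 and 75.8, 83.1 and 90.1 CPM with number 4, without overlap (0.47, SE 0.11, edgeR adjusted p 0.027). The same contrast put CHD4 at -0.32 (edgeR adjusted p 0.149), SMARCA5 at 0.26 (0.0718), SMARCAD1 at 0.30 (0.24) and CHD3 at -0.20 (0.507). Each knockdown effect is taken against the siNT libraries of its own number, so that these differences enter the interaction.

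The comparison of 4OHT with DMSO asked which remodeller transcripts changed as the cells became senescent. It shares the 4OHT siNT libraries with the knockdown comparison, so that the values of both are not independent of each other. Of the 42 members 27 were called (64.3%), against 54.4% of all genes. Of these, 10 were higher, against 27.0%, and 17 lower, against 27.4%. The groups did not overlap for 18 members, against 39.6% of all genes. The median change of the members was -0.13, beside 0.00 over all genes, and the calls covered 20 of 28 SWI/SNF subunits and 7 of 14 other ATPases.

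CHD7 (8:60678740-60868028), a CHD ATPase known from neural crest development, had the largest change of any member in either comparison. Its DMSO libraries read 0.621, 0.733, 0.736, 0.816 and 0.954 CPM, the 4OHT siNT libraries 3.04 to 5.24 CPM (median 4.16) and the siSMARCA4 libraries 3.13 to 5.11 CPM (median 3.91). Both 4OHT groups lay far above DMSO and overlapped with each other (2.45, SE 0.17, edgeR adjusted p 9.2e-10 for 4OHT against DMSO). Per length it was the lowest of the 42 members in all 3 groups.

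DPF3 (14:72609034-72894101), a BAF subunit known from muscle and nerve, had the largest fall of the members in 4OHT against DMSO. It went from 18.5, 24.3, 24.4, 34.0 and 34.4 CPM in DMSO to 8.92 to 11.2 CPM in 4OHT siNT (median 10.1; -1.43, SE 0.13, edgeR adjusted p 2.79e-08). SMARCE1 (17:40624962-40648654), an HMG-box core subunit, went from 65.9, 74.6, 76.6, 76.6 and 77.6 CPM to 37.2 to 44.8 CPM (median 40.3; -0.85, SE 0.08, adjusted p 3.31e-08). Neither gene overlapped between the groups, nor did ACTB (-0.64), CHD2 (-0.48), SMARCB1 (-0.24) or ACTL6A (-0.20). SMARCB1 was not called in number 4 libraries alone (-0.22, adjusted p 0.189), nor ACTL6A in number 2 libraries alone (-0.17, adjusted p 0.0559).

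CHD3 (17:7884796-7912760) was at 146, 175, 175, 189.5 and 211 CPM in DMSO and at 88.6 to 121 CPM in 4OHT siNT (median 100.1). It fell without overlap (-0.84, SE 0.13, edgeR adjusted p 3.08e-05) where CHD4 rose without overlap (0.66, SE 0.11, adjusted p 4.35e-05). Smaller falls were called for PBRM1 (-0.39), ATRX (-0.39), BICRAL (-0.39), SMARCAD1 (-0.39), DPF1 (-0.38), SMARCC2 (-0.33) and BRD7 (-0.27), each with overlapping libraries. Of these, ATRX lost its call without any of 6 of the 11 libraries, with adjusted p between 0.0534 and 0.0742, and in the joint fit by siRNA number it was at -0.06 (adjusted p 0.68) for number 2 and -0.80 (adjusted p 6.35e-05) for number 4. SMARCAD1 was not called with the V or VM tag as a covariate (-0.27, adjusted p 0.0704) or in VM libraries alone (-0.24, adjusted p 0.152). In number 4 libraries alone SMARCC2 (-0.16, adjusted p 0.4), SMARCAD1 (-0.36, adjusted p 0.128), BICRAL (-0.37, adjusted p 0.13) and PBRM1 (-0.35, adjusted p 0.0819) missed the threshold, and in number 2 libraries alone BRD7 (-0.13, adjusted p 0.198), DPF1 (-0.21, adjusted p 0.196), BICRAL (-0.45, adjusted p 0.0615) and ATRX (-0.10, adjusted p 0.477) did. DPF1 also lost its call without 4OHT siNT 4-2VM (-0.32, adjusted p 0.0531) or 4-3VM (-0.33, adjusted p 0.0546).

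PHF10 had the largest rise of a SWI/SNF subunit, 0.88 (SE 0.11, edgeR adjusted p 2.24e-06), without overlap. SS18L1, a paralogue of SS18 known from neurons, followed with 0.72 (SE 0.10, adjusted p 6.83e-06), from 9.75, 10.7, 11.6, 13.9 and 15.4 CPM to 18.8 to 21.5 CPM (median 20.2). DPF2 (0.31), SMARCC1 (0.30), SMARCD2 (0.36), SS18 (0.20) and SMARCA4 also rose without overlap. SRCAP rose by 0.44 (SE 0.18, adjusted p 0.0432) with overlapping libraries, and 8 of the 11 fits that left out a library did not call it (adjusted p 0.0598 to 0.117), and in number 2 libraries alone it was at 0.10 (adjusted p 0.526). SS18 lost its call in number 4 libraries alone (0.07, adjusted p 0.638), with no filter on low counts (0.17, adjusted p 0.123) and without DMSO 2-2VM (0.14, adjusted p 0.0652). SMARCC1 was not called in number 2 (0.19, adjusted p 0.126) or number 4 (0.36, adjusted p 0.0722) libraries alone.

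With DPF1, DPF3 and SS18L1, the members include subunits known from neurons, though DPF3 also from muscle. The neuronal markers RBFOX3 and SYP lay under 1 CPM on average in every group, while TUBB3 had means of 176, 283 and 275 CPM in DMSO siNT, 4OHT siNT and 4OHT siSMARCA4; their part in the levels of these subunits was not tested. ACTL6B, the neuronal counterpart of ACTL6A, was too low to be tested.

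Neither comparison called 15 of the 42 members (35.7%), against 37.9% of all genes tested: ARID1A, ARID1B and ARID2, BRD9 and BICRA, SMARCD1, BCL7B and BCL7C, SMARCA1 and SMARCA5, CHD1, CHD8 and CHD9, and INO80 and EP400. Among them are all 3 ARID subunits, which are among those that define BAF and PBAF, and both ISWI ATPases. Without DMSO 4-3VM, 4OHT against DMSO did call ARID1A (-0.29, adjusted p 0.0131) and BCL7B (0.25, adjusted p 0.000994), and number 2 libraries alone called ARID1A (-0.42, adjusted p 0.013), INO80 (-0.29, adjusted p 0.0227), SMARCD1 (-0.20, adjusted p 0.0391) and BCL7B (0.19, adjusted p 0.0347). In the same comparison VM libraries alone called BRD9 (-0.25, adjusted p 0.028) and BCL7C (-0.32, adjusted p 0.0272), and the V or VM tag as a covariate called BRD9 (-0.24, adjusted p 0.0431) and CHD1 (0.24, adjusted p 0.0419). Of the members called in both, SMARCA4, PHF10, SMARCD2, CHD4 and SRCAP were higher in 4OHT and lower with siSMARCA4, SMARCA2, SMARCC2 and SMARCD3 were lower in both, and BCL7A was lower in 4OHT and higher with siSMARCA4.

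Ratios of paralogue counts within a library do not depend on library size and were tested by exact permutation, 2-sided, with p-values adjusted over 32 tests (16 ratios in 2 comparisons; the smallest p allowed was 0.00216). Of the 16 ratios 14 were called in 4OHT against DMSO and 7 on knockdown, and both comparisons again share the 4OHT siNT libraries. Ratios of other gene pairs were not tested, so that these counts have no background to be read against. In these comparisons 54.4% and 24.2% of all genes were called singly, and some genes, such as ARID1A, enter more than 1 ratio. The knockdown count was 10 in VM libraries alone, and 4 without siSMARCA4 2-1VM or without siSMARCA4 2-3VM. The SMARCA4/SMARCA2 ratio rose by 0.90 on the log2 scale in 4OHT and fell by 1.12 on knockdown, where SMARCA4 is the target (exact permutation adjusted p 0.00577 for each). ARID1A/ARID1B, the ratio of the BAF-defining subunits, neither of which was called alone, fell in 4OHT and rose on knockdown without overlap in either. Its mean log2 ratio was 0.94 ± 0.13 in DMSO (SD, n = 5), 0.63 ± 0.08 in 4OHT siNT (n = 6) and 0.81 ± 0.06 in siSMARCA4 (n = 6; exact permutation adjusted p 0.00577 for both).

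Further ratios were called between DMSO and 4OHT. CHD4/CHD3 rose by 1.49, SMARCD1/SMARCD3 by 1.05, CHD1/CHD2 by 0.66 and SMARCC1/SMARCC2 by 0.64, each without overlap (exact permutation adjusted p 0.00577 for each). CHD8/CHD7 changed by -2.23, BCL7A/BCL7B by -0.96, DPF2/PHF10 by -0.57 and SMARCD1/SMARCD2 by -0.41, with the same p. SMARCA5/SMARCA1 and BRD7/BRD9 were not called (differences 0.07 and -0.11, exact permutation adjusted p 0.351 and 0.26).

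On knockdown the libraries of the other called ratios overlapped. SMARCD1/SMARCD2 was 0.16 higher and BCL7B/BCL7C 0.29 higher (exact permutation adjusted p 0.00815 for both), BCL7A/BCL7B was 0.41 higher and BRD7/BRD9 0.18 lower on the log2 scale (difference -0.18; 0.0396 for both), and BICRA/BICRAL differed by -0.35 (0.0365). Without siSMARCA4 4-3V the first 2 remained called at smaller values, 0.10 for SMARCD1/SMARCD2 and 0.18 for BCL7B/BCL7C. Of the 12 fits that left out a library of these groups, BRD7/BRD9 lost its call in 8 (exact permutation adjusted p 0.0598 to 0.0825), BICRA/BICRAL in 7 (0.051 to 0.0727) and BCL7A/BCL7B in 7 (0.0627 to 0.0825). CHD4/CHD3 was not called over all libraries (-0.03, exact permutation adjusted p 0.83) and was in VM libraries alone (-0.23, 0.0346), as were CHD1/CHD2 (-0.52, 0.0238), DPF2/PHF10 (0.36, 0.0346) and SS18/SS18L1 (0.15, 0.0346). In siSMARCA4 the V and VM libraries did not overlap for these ratios or for BCL7A/BCL7B. The count ratio of the last was 0.182 to 0.214 in V and 0.255 to 0.308 in VM. The tags overlapped for SMARCD1/SMARCD2, BCL7B/BCL7C, BRD7/BRD9 and BICRA/BICRAL. Leaving out 1 library also gave calls for CHD1/CHD2 without siSMARCA4 4-3V (-0.39, exact permutation adjusted p 0.00815), SS18/SS18L1 without 4-2V (0.11, 0.0401) and SMARCA5/SMARCA1 without 4-2VM (-0.17, 0.0437). BRD7/BRD9 was not called in VM libraries alone (-0.21, 0.0586).

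**Figure D3:**
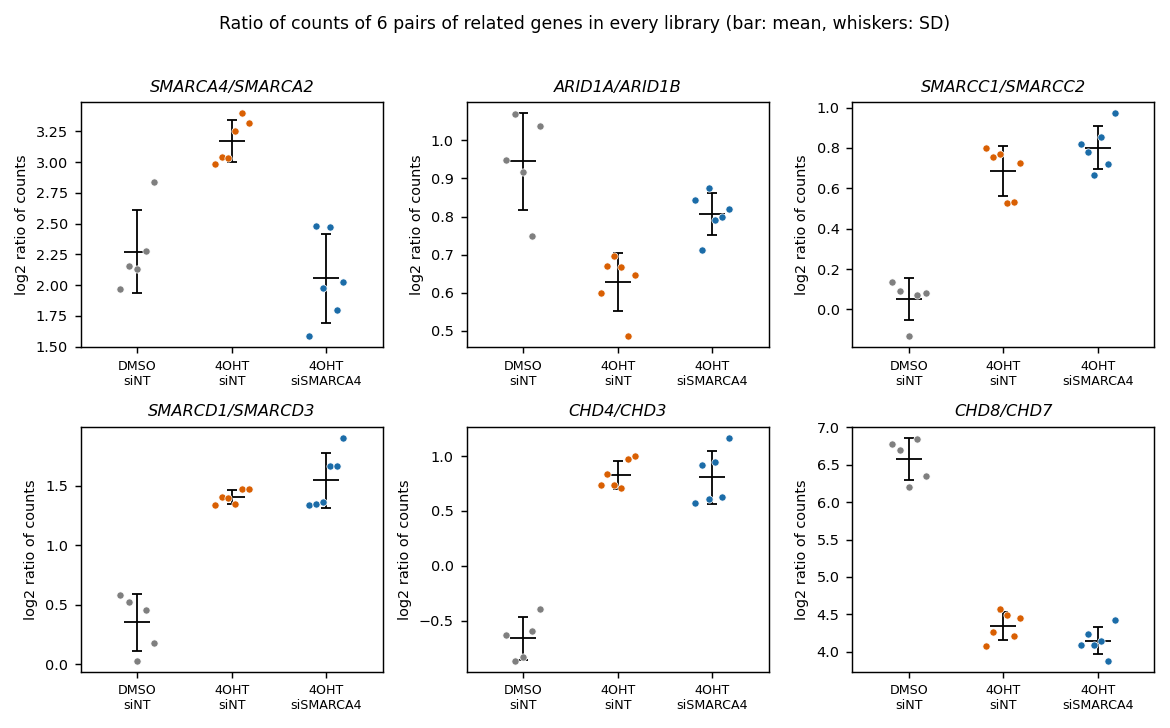
Log2 ratio of the counts of 2 related genes (y axis; not from 0) in every library of the 3 groups for 6 pairs (points; bar, mean; whiskers, SD). The SMARCA4/SMARCA2 ratio is 0.90 higher in 4OHT than in DMSO and 1.12 lower with siSMARCA4, while the CHD4/CHD3 and CHD8/CHD7 ratios differ by 1.49 and -2.23 between DMSO and 4OHT and by -0.03 and -0.20 between the siRNAs.

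Per exon length these shifts changed the make-up of several positions. Among the SMARCD genes SMARCD3 held 31.9 ± 3.09% in DMSO siNT (SD, n = 5), 16.6 ± 0.551% in 4OHT siNT (n = 6) and 16.0 ± 1.78% in siSMARCA4 (n = 6), and SMARCD2 rose from 27.2 to 39.2% between DMSO and 4OHT siNT. Among the DPF genes and PHF10, PHF10 went from 27.4 ± 0.867% to 40.7 ± 2.09% and DPF3 from 12.5 ± 2.63% to 3.76 ± 0.353%, while DPF2 stayed at 47.9 and 48.1%. Of the NuRD pair, CHD4 held 35.5 ± 3.05% in DMSO siNT, 60.6 ± 2.11% in 4OHT siNT and 60.2 ± 3.93% in siSMARCA4. ARID1A held 66.6 to 71.2% of the ARID transcripts on average in all 3 groups, and 57.8 to 63.0% by the longest transcript. With the longest transcript as the length, SMARCD3 went from 38.2 to 20.7% and CHD4 from 41.2 to 66.3% between DMSO and 4OHT siNT. That length changed the leading gene of some pairs. SMARCC1 held 45.3% of the SMARCC pair in DMSO siNT, against 55.5% by the union of exons. BRD9 held 50.9% beside BRD7 in 4OHT siNT, against 45.4%.

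**Figure D4:**
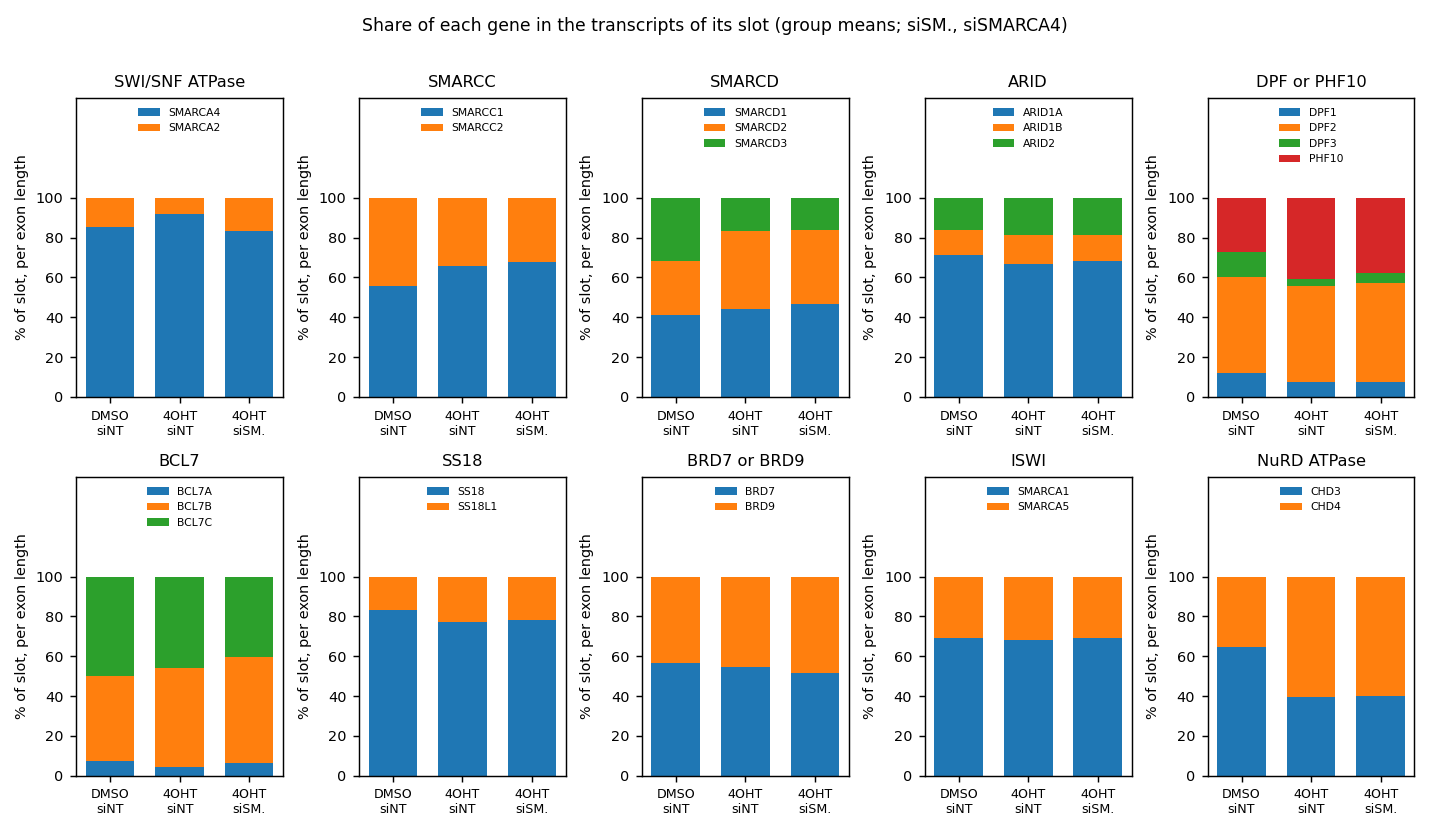
Mean share of each gene in the transcripts of its position, per kb of exons (y axis, % from 0 to 100), in the 3 groups, for 10 sets of alternative genes. SMARCD3 shrinks from 31.9 to 16.6% and CHD4 grows from 35.5 to 60.6% between DMSO and 4OHT, whereas the ISWI and BRD7 or BRD9 pairs change little.

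In the order of levels per exon length (TPM-like values), ACTB stood first and SMARCA1 second in all 3 groups by the union of exons. SMARCA4 was 6th in DMSO with a mean of 48.3, 3rd in 4OHT siNT with 57.0 and 15th in siSMARCA4 with 18.2; SMARCA2 was 33rd, 34th and 38th. By the longest transcript SMARCA4 was 2nd in DMSO and 4OHT siNT, above SMARCA1, and 9th in siSMARCA4, with means of 96.1, 116 and 37.4. In 4OHT siNT 27 of 41 neighbouring pairs lay within 1 SD of each other, and with the longest transcript in place of the union of exons 16 of 42 ranks moved by more than 3 places, so that only coarse differences in this order can be read.

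Counts on repeats that lie wholly inside introns of 1 gene gave a second readout, outside annotated exons, for 32 members with enough counts. The strand of the repeat relative to the gene was not considered. On knockdown 12 of the 32 were called higher and 0 lower by edgeR (37.5%; 1 of the 2 members below 0, PHF10, had an unadjusted p under 0.05), against 21.3% of 7915 genes in all, 19.1% higher and 2.25% lower. The median over members was 0.58, beside 0.35 over all genes. The values are low: for ARID1B the 4OHT siNT libraries ran from 0.374 to 0.576 CPM and the siSMARCA4 libraries from 0.842 to 1.62 CPM, without overlap (1.26, SE 0.32, edgeR adjusted p 0.00723).

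SMARCA4 itself, whose gene counts fell by 1.61, was not called in its introns. Its intronic repeats read 1.48 to 2.00 CPM in 4OHT siNT and 1.53 to 3.09 CPM in siSMARCA4, with overlap (0.42, SE 0.25, edgeR adjusted p 0.213). ARID1A (1.45), ARID2 (1.34), PBRM1 (1.16), BICRAL (1.24), BCL7A (1.18), INO80 (1.22) and CHD2 (1.14) were called, and of these ARID2, PBRM1, BICRAL, BCL7A, INO80 and CHD2 had no overlap. Apart from BCL7A, none of the 12 genes was called higher in its gene counts.

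On average, intronic repeats and counts far from genes were both higher in siSMARCA4 than in 4OHT siNT. Within siSMARCA4 they did not move in step. There 2-3VM had the most far counts (405 CPM) with 0.803% intronic, and 4-2V the most intronic (0.882%) with 179 CPM. Intronic repeats took 0.806% of counts in siSMARCA4 on average and 0.629% in 4OHT siNT. With far-from-gene counts as a covariate 0 of the 32 members were called. The share of all genes called in that intronic fit is not given. In gene counts the covariate took the share of all genes called from 24.2% to 6.26%. With the covariate the intronic point values remained positive for the 12, from 0.31 for SMARCC1 to 1.86 for SMARCAD1, and that of SMARCA4 was -0.10. Without the covariate, BRD7 and SMARCC1 lost their intronic calls in 7 and 3 of the 12 fits that left out a library. As the 4OHT groups did not overlap in counts far from genes, the fit could not tell the rise in introns apart from the rise of those counts.

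In 4OHT against DMSO the same readout called 1 member higher and 3 lower, 4 of 32 (12.5%), against 27.1% of all genes. PHF10 had 0.0194 to 0.139 CPM on intronic repeats in DMSO and 0.152 to 0.340 CPM in 4OHT siNT without overlap (1.98, SE 0.47, edgeR adjusted p 0.00179), alongside the rise in its gene counts. These values are near the floor, with 18 counts over all DMSO libraries and 79 over all 4OHT siNT libraries, on 14 loci. BCL7C fell without overlap (-0.87, SE 0.20, adjusted p 0.00148). BCL7A (-0.91) and ARID1A (-1.04) fell with overlap and lost their calls in 5 and 6 of the fits that left out a library. Without DMSO 2-2V the ARID1A value was -0.52 (adjusted p 0.273). That library had 0.870% of its counts on intronic repeats, and the other DMSO libraries 0.504 to 0.614%.

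**Figure D5:**
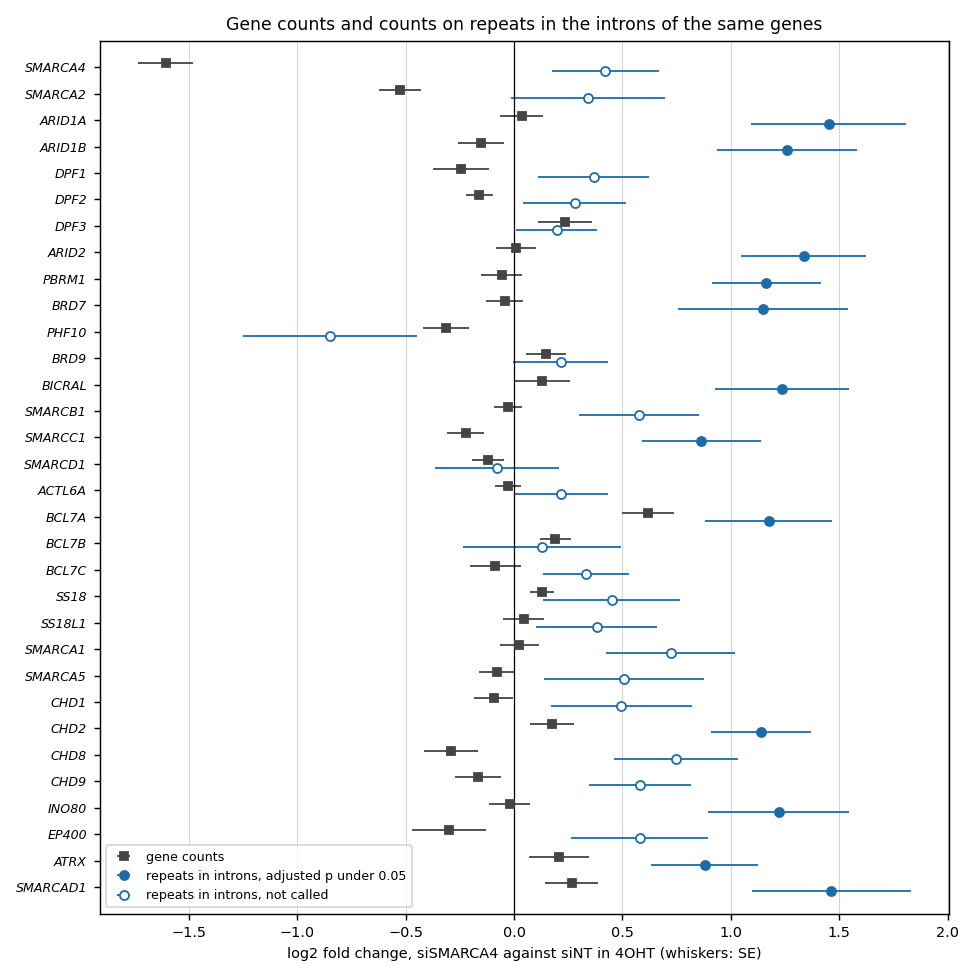
Log2 fold change of siSMARCA4 against siNT in 4OHT (x axis; whiskers, SE) of gene counts (squares) and of counts on repeats in introns (circles, filled where the adjusted p was under 0.05) for 32 members (y axis). For SMARCA4 the squares and circles stand at -1.61 and 0.42, and 12 circles are filled, all above 0.

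Partner subunits of these ATPases and further SNF2 genes were also examined. Of 61 other remodelling genes tested (of 63 listed), 12 were called on knockdown, 6 higher and 6 lower (19.7%), and 34 in 4OHT against DMSO, 17 in each direction (55.7%), near the shares of all genes in both. On knockdown the called genes without overlap were BAZ1B, an ISWI partner (-0.30, SE 0.07, edgeR adjusted p 0.00632), and ERCC6, a SNF2 ATPase of transcription-coupled repair (-0.40, SE 0.09, adjusted p 0.00256), and no gene rose without overlap. BAZ1B lost its call in number 2 libraries alone (-0.22, adjusted p 0.0537) and in number 4 libraries alone (-0.30, adjusted p 0.198). It also lost it with no filter on low counts (-0.26, adjusted p 0.0512) and with far-from-gene counts as a covariate (-0.29, adjusted p 0.0908). ERCC6 lost its call in number 4 libraries alone (-0.21, adjusted p 0.345) and with that covariate (-0.33, adjusted p 0.0925). Among called genes without overlap in 4OHT against DMSO, the largest rises were BAZ2A (0.92), TFPT (0.91) and INO80B (0.69), and the largest falls RAD54L (-3.61), HELLS (-2.58) and TTF2 (-1.49). TFPT (0.46, adjusted p 0.38) and INO80B (0.54, adjusted p 0.116) were not called in number 4 libraries alone. RAD54L, which acts in homologous recombination, went from 4.84 to 6.46 CPM in DMSO to 0.267 to 0.681 CPM in 4OHT siNT.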

How the data were processed

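The authors trimmed paired-end reads of poly(A) RNA with Cutadapt 4.7, aligned them to GRCh38 with HISAT2 2.2.1 and counted genes and repeat loci together with TElocal, which shares multi-mapped reads out. The deposited values are estimated counts, given as whole numbers, and these were used as they stand for 62754 genes and 4748242 repeat loci in each of the 17 libraries. Symbols and lengths came from GENCODE 44 for 62700 genes.

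Genes and summed repeat subfamilies were filtered (filterByExpr, minimum count 10), scaled by TMM and fitted with edgeR 4.0.16 (quasi-likelihood, 3 groups), with Benjamini-Hochberg adjustment over 19473 genes. On simulated data 88 of 100 genes changed by 1 log2 unit and 64 of 100 changed by 0.585 were recovered. Ratios were tested by exact permutation. Members and lists were chosen with earlier results of these data known. All members are described. Of 63 further remodelling genes, those named have the 3 largest rises and falls among called genes without overlap between groups.

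Alternatives were DESeq2 1.42.0, RLE factors, no filter, genes alone, 2 groups alone, a replicate block, the V or VM tag, siRNA number, a covariate for counts over 50000 bp from genes, transcript length, shared introns and leaving out each library.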

Additional observations from a re-analysis of the deposited data

Results flagged for a closer look

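A sample lay far from the others of its group in 13 of 126 groups of member levels, by Dixon's test at the 95% level, which chance alone gives in about 1 in 20 groups. In the siSMARCA4 library 4-2V these were the highest values of INO80 (34.54 CPM), SRCAP (47.57 CPM) and EP400 (62.25 CPM), all of the INO80 family. In siSMARCA4 4-3V they were the lowest values of BRD7 (37.74 CPM) and BRD9 (36.33 CPM) and the highest of ACTB (6134 CPM). The DMSO library 4-3VM had the lowest SMARCA2 (30.04 CPM) and SMARCC2 (71.64 CPM) and the highest BCL7B (50.87 CPM), and DMSO 2-2VM the highest SMARCD3 (55.7 CPM) and the lowest SMARCE1 (65.87 CPM). In 4OHT siNT, ACTL6A was lowest in 4-2VM (28.28 CPM) and CHD9 highest in 2-1VM (47.05 CPM).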

How the results depend on the processing

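Of the 9 members called on knockdown, SMARCA4 was called under all 23 alternatives. The count was 1 with number 4 libraries alone (6.02% of all genes) and 2 with counts far from genes as a covariate (6.26%). It was 7 to 14 when a library was left out, the 14 without siSMARCA4 4-2V (27.1%). DESeq2 called 12 (26.7% of all genes), against 9 (24.2%) in edgeR. With counts far from genes as a covariate the intronic repeats of 0 members were called on knockdown, against 12 without it. The share of all genes called in that intronic fit is not given. In 4OHT against DMSO 14 of the 27 called members were called under all 22 alternatives, and the intronic count ranged from 2 to 4 when a library was left out, with 2 without 4OHT siNT 2-2VM or 4-3VM. No called member changed sign under any of these alternatives. With the siRNA numbers taken alone 0 paralogue ratios were called, against 21, since groups of 3 libraries or fewer allow no p below 0.10 before adjustment. The causes of the other changes were not tested.

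Libraries that share a replicate label did not steadily deviate together (correlations of 0.052, 0.297 and -0.105 on knockdown and -0.450, -0.308 and 0.208 for 4OHT against DMSO). No pairing by these labels was thus seen, though so few pairs cannot exclude one. With a replicate block the counts of members called were 6 on knockdown, against 9 without it, and 17 in 4OHT against DMSO, against 27. The shares of all genes called went from 24.2% to 15.6% and from 54.4% to 40.7%. The calls lost on knockdown, with their values under the block, were SMARCC2 (-0.37), SMARCD3 (-0.19) and CHD4 (-0.42). In 4OHT against DMSO they were DPF1 (-0.49), PBRM1 (-0.28), BRD7 (-0.28), BICRAL (-0.36), SMARCB1 (-0.18), SMARCC2 (-0.30), ACTL6A (-0.19), SS18 (0.20), ATRX (-0.47) and SMARCAD1 (-0.24). Outside the members, BAZ1B also lost its knockdown call (-0.31, edgeR adjusted p 0.0589).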
